A study of Mus musculus with 4 samples.

Results

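Prrx1, Prrx2, Shox2 and Alx4 are 4 homeobox genes of limb mesenchyme. They were chosen by name, and their accessible chromatin was taken as every deposited region that overlaps the 100 kb on either side of the gene's start site in the mouse build mm10. This gave 105 of the 99427 regions listed at E10.5 and 42 of the 37548 listed at E11.5. ATAC-seq was run on dissociated, fixed cells of mouse embryo limbs, with forelimb and hindlimb both named as the tissue of each sample. Both groups are wild type, and each has 2 replicates, at embryonic day E10.5 or E11.5 by the sample titles (a protocol text gives E10 for the earlier one). The authors gave 1 list per stage for both replicates together. A value below therefore has no spread between replicates, differences between the stages could not be tested, and the sequencing depth behind each list is unknown. Limb tissue holds several cell types, so fewer cells with an open site and less opening per cell cannot be told apart.

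All 4 genes encode paired-type homeodomain proteins, which bind DNA at sites built around the letters TAAT. Prrx1 and Prrx2 are expressed in early limb bud and craniofacial mesenchyme and act partly redundantly in skeletal patterning, and a fragment upstream of Prrx1 is widely used to drive Cre in limb mesenchyme. Shox2 is the mouse relative of the human short-stature gene SHOX and is needed for the limb bones nearest the body. Alx4 acts in anterior mesenchyme, and its loss gives extra anterior digits. In ATAC-seq a transposase cuts open DNA, so a region marks a promoter, an enhancer or another open stretch, and it does not measure transcription.

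Each of the 4 genes had a region within 1 kb of its start site, here called a promoter region, in both lists. Of 21536 protein-coding genes, 68.5% had one at E10.5 and 62.6% at E11.5. Every other region within the 100 kb (the gene's window) is called distal. Of the 105 E10.5 regions 4 were promoter regions and 101 distal, and of the 42 E11.5 regions 6 were promoter regions and 36 distal. The promoter count is larger at E11.5 because the single E10.5 region over the start of Prrx1 and of Alx4 corresponded to more than 1 E11.5 region.

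The 250 bases before the start site are shown for the 3 genes whose promoter is in the RefSeq promoter table (GRCm38.p6, which has the mm10 coordinates), since open chromatin covers each of these stretches. They lie at chr1:163313651-163313900 on the minus strand for Prrx1, at chr2:30845117-30845366 on the plus strand for Prrx2 and at chr3:66981772-66982021 on the minus strand for Shox2, and they are written 5′ to 3′ with the paired-type core TAATTA in capitals.
Prrx1: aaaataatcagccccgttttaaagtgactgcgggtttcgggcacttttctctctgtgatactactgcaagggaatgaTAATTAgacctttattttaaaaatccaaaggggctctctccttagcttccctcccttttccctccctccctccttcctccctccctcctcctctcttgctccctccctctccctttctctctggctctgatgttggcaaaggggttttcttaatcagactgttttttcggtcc
Prrx2: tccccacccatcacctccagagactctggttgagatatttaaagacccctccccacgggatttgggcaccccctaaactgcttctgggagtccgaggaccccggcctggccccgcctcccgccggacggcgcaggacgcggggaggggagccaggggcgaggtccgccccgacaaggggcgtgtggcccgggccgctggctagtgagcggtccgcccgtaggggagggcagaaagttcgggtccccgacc
Shox2: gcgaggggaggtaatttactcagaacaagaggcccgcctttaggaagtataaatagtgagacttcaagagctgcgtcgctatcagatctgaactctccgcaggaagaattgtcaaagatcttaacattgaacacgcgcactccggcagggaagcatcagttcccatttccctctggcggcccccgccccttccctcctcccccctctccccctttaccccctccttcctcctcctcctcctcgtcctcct
These sequences differ in base composition. The Prrx2 stretch is 70% G and C, higher than 87.9% of protein-coding promoters, against 47.6% for Prrx1 and 55.6% for Shox2, where the median over 21263 promoter entries is 55.6%. The Prrx1 stretch holds 1 TAATTA, which begins 173 bases before the start, and the Prrx2 and Shox2 stretches hold none. That core is in 4.31% of promoter entries of the same length. The shorter half-site TAAT, searched on both strands, occurs 4 times in Prrx1 (2 of them within the core, which reads the same on both strands), once in Shox2 and not in Prrx2, and it is in 49.4% of entries. The E-box CANNTG, a site for Twist and other bHLH proteins, is in 62.8% of entries and in none of the 3. Neither 2 TAAT half-sites facing each other 3 bases apart, nor an E-box followed by the core 6 bases on, occurs in the 3 stretches; 0.357% and 0.0376% of entries hold them. E10.5 regions covered 100% of the stretch in all 3 genes. At E11.5 they covered 100% in Prrx1 and Shox2 and 69.2% in Prrx2.

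The number of regions per window separated the 4 genes. The median window of a protein-coding gene held 10 E10.5 regions and 5 E11.5 regions. The Prrx2 window held 38 and 22, more than 99.1% and 99.0% of windows had. Alx4 had 31 at E10.5, more than 96.7% of windows, and 5 at E11.5, more than 48.7%. Prrx1 had 23 and 9, more than 87.4% and 77.9%. Shox2 had 13 and 6, more than 59.4% and 57.8%. The order at E10.5 was thus Prrx2, Alx4, Prrx1, Shox2, while at E11.5 Alx4 came last and stood next to Shox2. Counts of neighbouring genes share regions and depend on how many other genes a window holds: in the Prrx2 window 4 regions of each list lay at promoters of other protein-coding genes, in the Prrx1 and Shox2 windows 1 each and in the Alx4 window none.

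**Figure D1:**
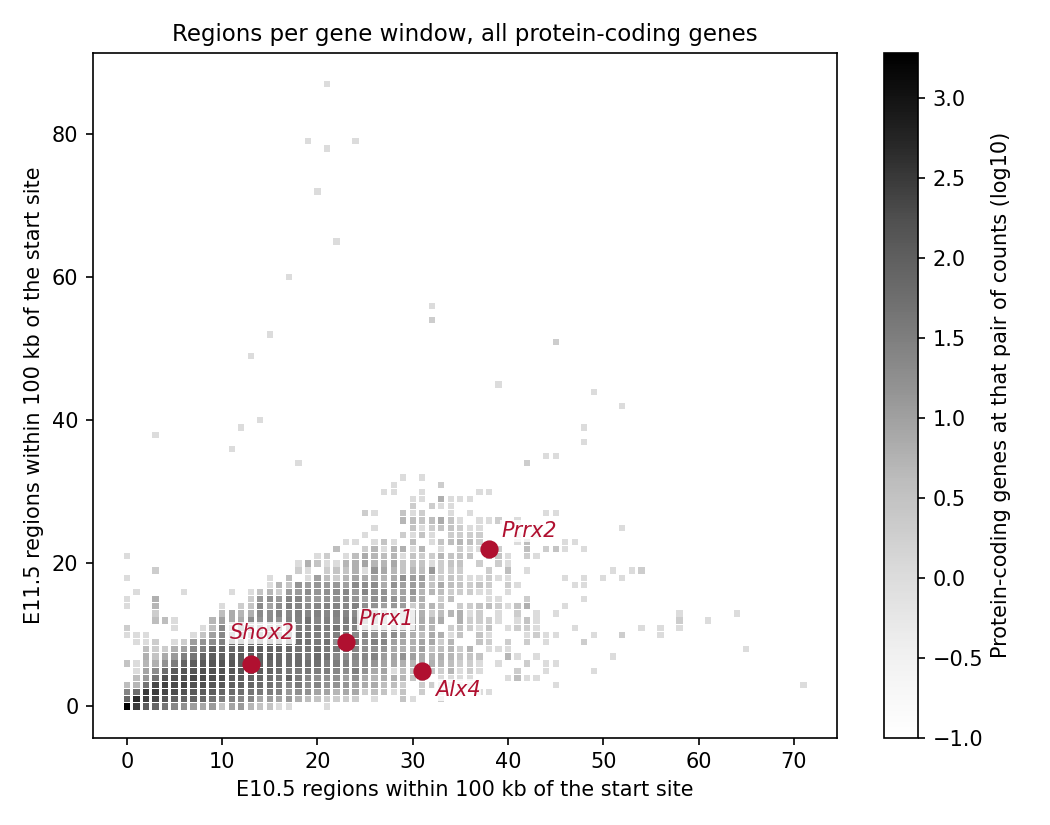
Number of E11.5 regions (vertical axis) against number of E10.5 regions (horizontal axis) within 100 kb of a start site. Grey squares are pairs of counts over 21536 protein-coding genes, darker where more genes share them, and the red points are the 4 genes; Alx4, at 31 and 5, lies low for its E10.5 count and Prrx2, at 38 and 22, lies among the highest of both.

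Among the 871 genes with an E10.5 count within 3 of that of Alx4, the median E11.5 count was 13, and 7.92% had as few as Alx4 or fewer. The same share was 48.3% for Prrx1, 84.1% for Prrx2 and 57.1% for Shox2, each among genes of a like E10.5 count. Limb mesenchyme regulators with an E10.5 count within 3 of that of Alx4 also had fewer than 13 E11.5 regions. Their E10.5 and E11.5 counts were 33 and 1 at Tbx3, 29 and 7 at Lhx2, 33 and 9 at Msx1, and 28 and 10 at Tbx15. Genes with the same pair of counts numbered 24 for Prrx1, 105 for Shox2 and 3 for Alx4 (Baiap2, Tead3 and Tulp1), which describes the counts and nothing else about these genes.

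**Figure D2:**
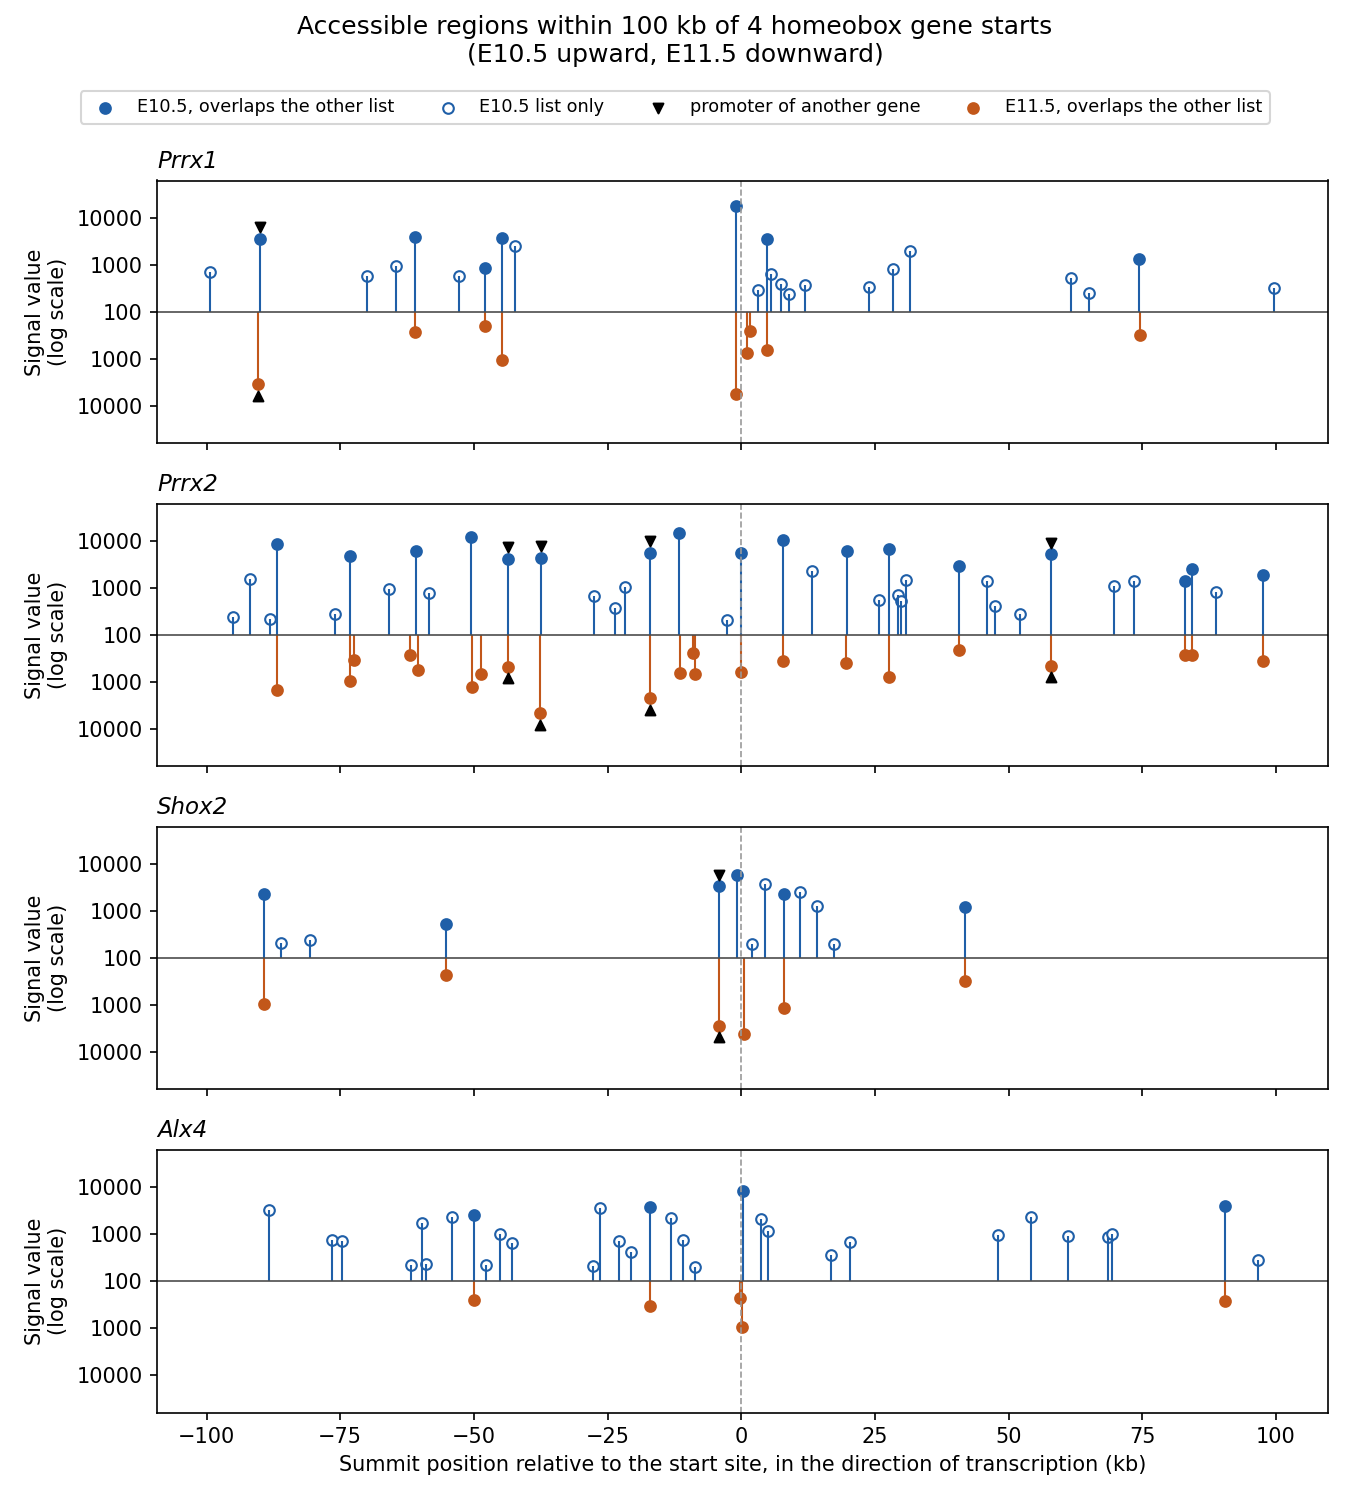
Regions around the 4 start sites, plotted by the distance of the summit from the start in kb, with the deposited signal value on a log scale upward for E10.5 and downward for E11.5. Filled points overlap the other list and open points do not, triangles mark promoters of other genes, and all 42 E11.5 points are filled while most of the 31 E10.5 points at Alx4 are open.

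Prrx1 (gene ID 18933) lies on the minus strand of chromosome 1, from 163245119 to 163315145, and its start site was placed at 163313650. Its E10.5 promoter region, chr1:163310855-163316346, spanned 5492 bp and had a signal of 17871. Signal is the authors' value for a peak, a total that grows with the peak's width. This placed the region at rank 218 of 99356 by signal and at rank 181 by width, and at rank 158 of 15422 among promoter regions. Divided by width, the signal ranked lower, at 9906, so the breadth of the region contributes to its rank. At E11.5 the same stretch held 3 regions. The one over the start, chr1:163313009-163315744, had a signal of 5640 (rank 2058 of 37413) and a width of 2736 bp, and its summit lay 32 bp from the E10.5 summit. The other 2 lay inside the gene, 777 bp and 1437 bp from the start, with signals of 737 and 251.

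Of the 22 distal E10.5 regions of Prrx1, 11 lay in the gene and 9 upstream of the start. The strongest were 60.3 kb upstream (chr1:163373960-163375198, signal 3969), 43.6 kb upstream (chr1:163357285-163358722, signal 3693) and 3.44 kb downstream within the gene (chr1:163308343-163310211, signal 3642). Each of these 3 overlapped an E11.5 region, with E11.5 signals of 266, 1060 and 641. The fourth, 89.6 kb upstream with a signal of 3621, is the promoter of Gorab, a gene for a Golgi protein, and had an E11.5 signal of 3407. The fifth, 41.6 kb upstream (chr1:163355290-163356863, signal 2498), was in the E10.5 list only. At E11.5 the strongest distal region of the window was therefore the promoter of a neighbouring gene, followed by the regions 44.2 kb upstream and 4.46 kb downstream. A region 74.4 kb downstream came next with a signal of 317, and it overlapped an E10.5 region of signal 1316.

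Prrx2 (gene ID 20204) lies on the plus strand of chromosome 2, from 30845064 to 30881251, with its start site at 30845367. Its E10.5 promoter region, chr2:30844604-30847989, had a width of 3386 bp and a signal of 5708, at rank 7848 of the list and 5298 among promoter regions. The E11.5 promoter region, chr2:30845194-30845753, was 560 bp wide with a signal of 627, at rank 20173 of 37413 and 11894 of 13758 promoter regions. It covered 16.5% of the E10.5 region. The E11.5 −log10 p was 3.98, and this was the only one of the 4 genes whose strongest E11.5 promoter region fell under a −log10 p of 5.

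At E10.5, 7 of the 37 distal regions of Prrx2 exceeded its promoter in signal. The strongest was 8.08 kb upstream (chr2:30832832-30837290, signal 14615, rank 477). It was followed by one 48.0 kb upstream that overlaps 1700001O22Rik (chr2:30794183-30797408, signal 12058, rank 1034) and one 5.49 kb downstream inside Prrx2 (chr2:30850857-30855185, signal 10737, rank 1519). The next 2 were 84.8 kb upstream, with a signal of 8600, and 26.6 kb downstream in the gene, with a signal of 6821. All 5 overlapped E11.5 regions. The summed E11.5 signal within them was 1585, 1951, 365, 1495 and 790 in the same order, so the region 5.49 kb downstream was the lowest of the 5 at E11.5. The 2 strongest distal E11.5 regions of the window were promoters of other genes. They belong to Ntmt1, an N-terminal methyltransferase gene (36.8 kb upstream, signal 4597, rank 3438), and to Asb6 (16.7 kb upstream, signal 2225). Regions 86.2, 50.3 and 72.9 kb upstream came next, with signals of 1495, 1265 and 933.

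Shox2 (gene ID 20429) lies on the minus strand of chromosome 3, from 66971723 to 66981771, where the start site was placed. Its promoter region was nearly the same stretch at both stages. At E10.5 it ran over chr3:66980368-66982967 (2600 bp, signal 5970, rank 7195 of 99356) and at E11.5 over chr3:66980396-66982935 (2540 bp, signal 4205, rank 4136 of 37413). The E11.5 region covered 97.7% of the E10.5 region. By width it stood at rank 507 of the E11.5 list. The summits of these regions lay 1173 bp apart. Both regions overlap the RefSeq span of the neighbouring gene Rsrc1 as well as that of Shox2.

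The strongest distal E10.5 region of Shox2 lay 2.19 kb downstream in the gene (chr3:66976936-66979580, signal 3858), and it was not in the E11.5 list. Of E10.5 regions in the same decile of the list (10 equal groups by signal), 81.3% overlapped an E11.5 region, and 70.4% of those away from promoters did. The next, 3.85 kb upstream with a signal of 3359, is a promoter of Rsrc1, a splicing-related gene, and had an E11.5 signal of 2762. A region 10.4 kb downstream, beyond the gene's end (chr3:66969799-66971384, signal 2542), was again in the E10.5 list only. The region 6.93 kb downstream in the gene (chr3:66973298-66974845, signal 2356) and the one 88.6 kb upstream in Rsrc1 (chr3:67070346-67071582, signal 2321) were in both lists, with E11.5 signals of 1184 and 965. The remaining E11.5 regions lay 41.7 kb downstream and 54993 bp upstream, with signals of 304 and 225. Between the Rsrc1 promoter and the region 54993 bp upstream neither list held a region.

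Alx4 (gene ID 11695) lies on the plus strand of chromosome 2, from 93642434 to 93681341, with its start site at 93642434. Its E10.5 promoter region, chr2:93639441-93644128, was 4688 bp wide, at rank 342 of 99356 by width, and had a signal of 8289, at rank 3338. Where this region lay, the E11.5 list held 2 short ones, and neither spanned the start. The region chr2:93642122-93642291 ended 143 bp before the start and had a signal of 233 (rank 34525 of 37413). The region chr2:93642447-93643239 began 13 bp after the start and had a signal of 931 (rank 16388). Together they covered 20.5% of the E10.5 region.

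Of the 30 distal E10.5 regions of Alx4, 19 lay upstream and 11 downstream, and 3 overlapped an E11.5 region. These 3 were 89964 bp downstream in Ext2 (chr2:93732398-93733515, signal 3906), 16.5 kb upstream (chr2:93624580-93625938, signal 3803) and 49.0 kb upstream (chr2:93591619-93593463, signal 2542), and their E11.5 signals were 259, 340 and 257. All of these E11.5 values lie in the lowest 3 deciles of that list. Regions of like E10.5 signal at 25.5 kb upstream (chr2:93615465-93616945, 3698) and 87.9 kb upstream (chr2:93552702-93554578, 3353) were in the E10.5 list only. Recurrence in this window thus did not follow the order of E10.5 signal strictly.

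A region is called shared, or recurring, when it has 1 bp or more in common with the other list. This held for 34 of the 105 regions at E10.5, or 32.4% (95% Wilson interval 24.2 to 41.8%), against 32.3% of the whole E10.5 list. It held for all 42 at E11.5 (lower bound 91.6%), against 91.8% of the whole E11.5 list. Neither share stands apart from its list. No member had a region in the E11.5 list only. By gene, 7 of 23 E10.5 regions recurred at Prrx1 (30.4%, 15.6 to 50.9%), 17 of 38 at Prrx2 (44.7%, 30.1 to 60.3%), 6 of 13 at Shox2 (46.2%, 23.2 to 70.9%) and 4 of 31 at Alx4 (12.9%, 5.13 to 28.9%). Only counting error enters these intervals, and nearby regions may not be independent of each other. The interval of Alx4 lies wholly under the share of the list. The counts depend on how sharing is defined: with a reciprocal overlap of 50%, 2 regions were shared at Prrx1, 1 at Prrx2, 6 at Shox2 and 0 at Alx4. The share of the whole list under that definition is not given here.

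Signal at E10.5 differed between regions that recurred and those that did not in each window. The median signal of shared and unshared E10.5 regions was 3642 and 554 at Prrx1, 5571 and 717 at Prrx2, 2339 and 243 at Shox2, and 3854 and 754 at Alx4. In the lower 5 deciles of the list by signal, 7.39% of all E10.5 regions recurred, and 1 of 45 did in the 4 windows, the Shox2 region 54993 bp upstream. In the top 3 deciles 77.3% of all regions recurred, and in the windows 16 of 17 at Prrx2, 5 of 7 at Prrx1, 4 of 6 at Shox2 and 4 of 10 at Alx4. Adding up, over a window, the list's recurring share in each region's own decile gave 7.05 recurring regions at Prrx1, 17.9 at Prrx2, 5.12 at Shox2 and 9.64 at Alx4. The counts of 7, 17 and 6 lie near these sums, and the 4 of Alx4 lie under its sum. For distal regions at no other gene's promoter, set against list regions away from promoters, the sums were 4.65, 12.2, 2.93 and 7.65, for counts of 5, 12, 4 and 3. These are descriptions of the lists, not tests.

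**Figure D3:**
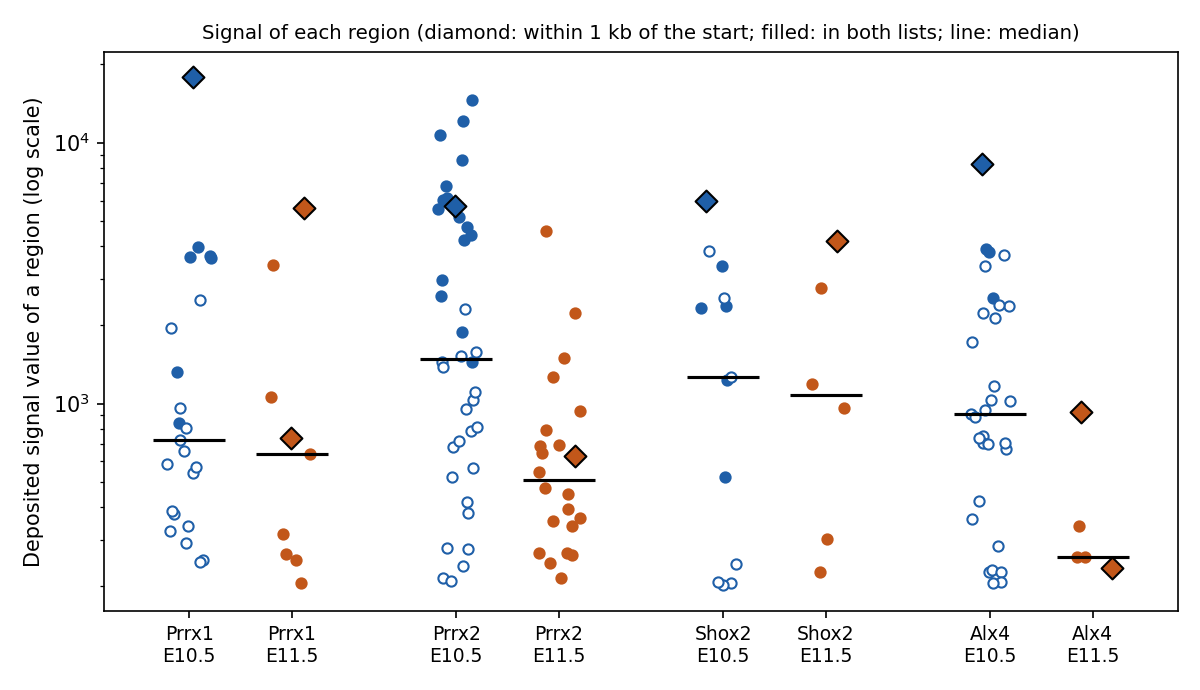
Deposited signal value of every region in the 4 windows on a log scale, by gene and stage, with diamonds for regions within 1 kb of the start, filled symbols for regions in both lists and a line at the median. The promoter is the strongest E10.5 region at Prrx1, Shox2 and Alx4 and is exceeded by 7 distal regions at Prrx2.

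For each shared E10.5 region, its signal was divided by the summed signal of the E11.5 regions it overlaps. The lists have no common scale, so the ratio is read only against that of other regions. Over all shared regions of the top 3 deciles the median ratio was 1.68 at protein-coding promoters (10th to 90th percentile 1.03 to 3.88) and 4.91 elsewhere (1.85 to 11.9). The promoter of Shox2 had a ratio of 1.42 and that of Prrx1 2.70, both between those percentiles of promoters. The ratio was 7.12 at the Alx4 promoter, higher than at 97.0% of promoters, and 9.10 at the Prrx2 promoter, higher than at 98.4%. Large differences were not particular to these genes. The strongest promoter regions, not summed, had E10.5 and E11.5 signals of 19004 and 1708 at Pdgfra and of 6335 and 620 at Tbx15. Of 19 limb mesenchyme regulators, Twist1 and Gli3 differed least, with 9509 and 6253 at Twist1 and 15970 and 10604 at Gli3. The others lay between these and Pdgfra and Tbx15, with 15899 and 1783 at Tbx2 and 20855 and 2353 at Hoxd9. The 24 shared distal regions at no other gene's promoter had a median ratio of 5.97, from 1.99 to 29.4. Some of the 24 lay below the top 3 deciles, to which the 4.91 is limited. The highest ratio was at the region 5.49 kb downstream in Prrx2. In the same windows the promoters of Ntmt1, Gorab, Rsrc1 and Asb6 had ratios of 0.962, 1.06, 1.22 and 2.50, while that of 1700001O22Rik had 8.95 and that of Ptges, a prostaglandin synthase gene, a higher one. The medians by gene were 2.16 over 6 regions at Shox2, 4.14 over 7 at Prrx1, and 8.63 over 17 at Prrx2, and the 4 at Alx4 ranged from 7.12 to 15.1.

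**Figure D4:**
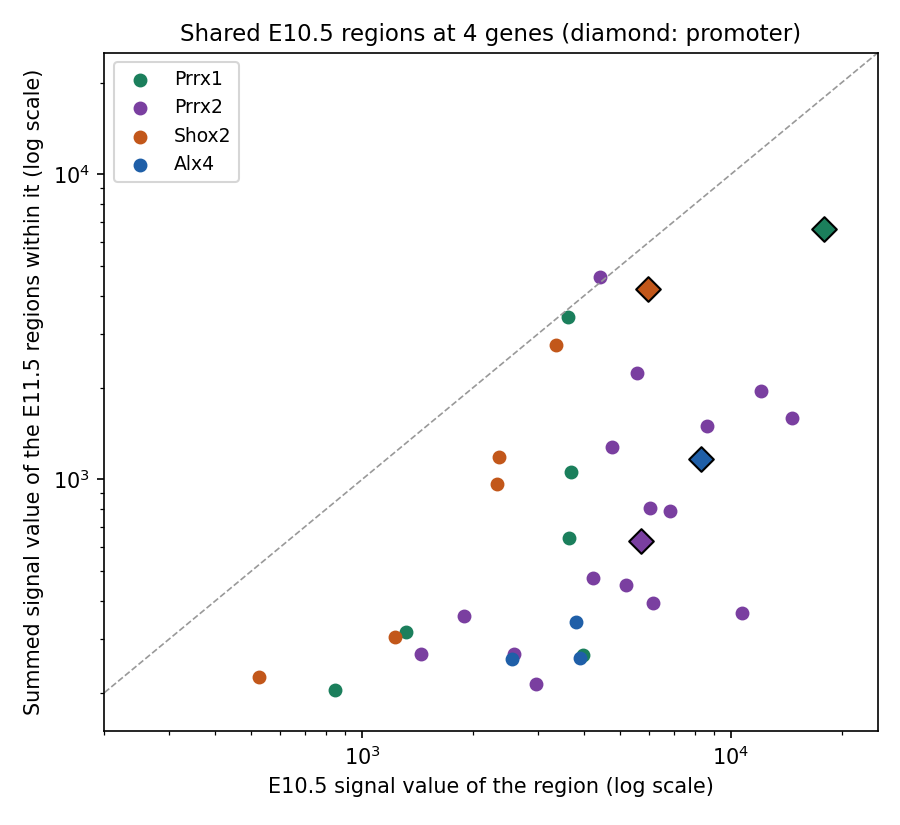
Signal of each of the 34 shared E10.5 regions (horizontal, log scale) against the summed signal of the E11.5 regions it overlaps (vertical, log scale), coloured by gene, with diamonds for promoters and a dashed line at equal values. All 6 Shox2 points have a ratio of at most 4.05, the Prrx2 and Alx4 promoters lie at 9.10 and 7.12, and the 1 point above the line is the Ntmt1 promoter in the Prrx2 window.

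The E11.5 regions were mostly narrower. They covered a median of 96.2% of the width of shared E10.5 regions at Shox2, 45.8% at Prrx1, 29.8% at Prrx2 and 26.5% at Alx4. The median over all shared regions was 65.8%, which mixes promoters and other regions. In the top 3 deciles it was 80.5% at protein-coding promoters and 46.9% elsewhere, and most shared regions of the 4 genes were distal. Of the 42 overlapping pairs 40 had the E11.5 region wholly inside the E10.5 region (95.2%, against 78.7% of all pairs), and the summits of 29 pairs lay within 100 bp of each other (69.0%, against 76.4% of all pairs). Of each window of 200 kb, E10.5 regions covered 11.1% at Prrx1, 27.3% at Prrx2, 6.47% at Shox2 and 16.7% at Alx4. E11.5 regions covered 3.39%, 5.71%, 3.12% and 1.09%.

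Of 30 located relatives in the wider paired class, 22 had a promoter region at E10.5, a share close to that of all genes (68.5%), and 12 had one at E11.5, against 62.6% of all genes. Those with one in both lists included Alx1, Dmbx1, Gsc, Gsc2, Mixl1, Otx1, Pax6, Pitx3 and Vsx1. Those with one at E10.5 only included Hesx1, Otp, Otx2, Pax3, Pax7, Phox2a, Pitx1, Rax and Uncx, and no relative had one at E11.5 only. Alx1, a close relative of Alx4 that acts in the face, had promoter signals of 3529 at E10.5 and 3650 at E11.5, in a window of 4 E10.5 regions and 3 E11.5 regions. Pitx1, a hindlimb identity gene, had an E10.5 promoter signal of 7629 and no E11.5 promoter region. All 19 genes of a list of limb mesenchyme regulators, chosen with earlier results of these data known, had a promoter region in both lists. The strongest E10.5 promoter region of each ranked from 121 (Hoxd9) to 13786 (Tcf4), a range that holds the ranks of the 4 genes, and their windows held a median of 23 and 8 regions, against 27 and 7.5 for the 4 genes.

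Markers of the cell types in a limb bud were read in the same way. All 6 limb mesenchyme markers (Prrx1 among them) had promoter regions at both stages. Regions were present at 6 of 7 surface ectoderm markers at E10.5 and at 4 at E11.5, at 3 and 1 of 6 endothelial, 2 and 4 of 6 blood, 6 and 3 of 6 muscle precursor, 6 and 4 of 6 nerve and glia, and 4 and 4 of 5 cartilage markers. Blood was the only list with more at E11.5. For comparison, the share of all protein-coding genes with a promoter region was 68.5% for the earlier stage and 62.6% for the later one. The later peak list is also shorter, with 37413 regions against 99356. Each marker list holds at most 7 genes, and whether its counts differ from these shares was not tested. The part of cell makeup in the differences at the 4 genes was not tested.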

How the data were processed

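Open chromatin was profiled by ATAC-seq in 4 samples, 2 at each of 2 stages, with the stage read from each title. Deposited were 2 peak lists, in mm10 per the file headers, 1 per stage for both replicates. The submitters' processing notes name cutadapt, Bowtie2, SAMtools, deepTools and Genrich, with no role or version. How replicates were joined, which reads were filtered and whether read ends were shifted for Tn5 are not given in the sources used here. The deposited signal value (column 7) is never below 200.0 and grows with width. The deposited score is signal divided by width, times 1000 and capped at 1000, and was not used. The deposited −log10 p ranked and filtered peaks in alternatives only. The q-value column of the deposited lists holds -1 throughout.

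Peaks on chromosomes 1 to 19, X and Y (99356 at E10.5, 37413 at E11.5) are called regions, and coordinates are mm10 and 1-based. Start sites came from a RefSeq promoter table of GRCm38.p6 (the outermost listed start, 17492 genes) or otherwise from the gene's outer end with strand from the GENCODE M1 annotation by symbol (4044 genes, Alx4 among them), for 21536 of 21887 protein-coding genes. The M1 coordinates and genome are of another build and were not used. Exons and introns were not used here. Distances run from a region's nearest edge to the start. Ranks count from the highest signal of a list, and deciles divide a list by signal. Proteins were not compared and motifs were searched in the promoter table only. Intervals are 95% Wilson. No test was run, because each list joins its replicates. The overlap code was checked on simulated intervals, with Python 3.11.15, pandas 2.3.3, NumPy 2.4.6 and SciPy 1.17.1.

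The named distal regions are the 5 of each list and gene with the highest signal, and relatives with a promoter region in 1 list only are named. Some genes of these lists are not reported here by name. The members, gene lists and rules were chosen with earlier results of these data known. Alternatives changed the −log10 p minimum, the list length, the window, the overlap, the promoter distance, the ranking and the start site.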

Additional observations from a re-analysis of the deposited data

How the results depend on the processing

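No paired analysis was possible because the values of single samples were merged into 1 list per stage, and no sample was left out in turn. The unknown depth limits all counts. Under 6 alternatives each, the number of the 4 genes with a promoter region stayed at 4, except that it was 3 at E11.5 with a −log10 p of at least 5, where Prrx2 had none. Some of these outcomes were fixed in advance. Shortening the E10.5 list could not change the E11.5 number, and a promoter distance of 2 kb could not lower either number.

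With a −log10 p of at least 5 the windows held 63 E10.5 regions, 14 of them shared, and 15 E11.5 regions, 15 of them shared, by construction fewer. With the E10.5 list reduced to the length of the E11.5 list they held 47 E10.5 regions by signal (31 shared) and 45 by −log10 p (31 shared), and 39 of the 42 E11.5 regions were shared under each. Windows of 50 kb on either side held 61 E10.5 regions with 21 shared and 26 E11.5 regions with 26 shared. Windows of 250 kb held 223 with 66 shared and 79 with 79 shared. A reciprocal overlap of 50% left 9 shared regions in each list (1 of 38 at Prrx2, where 17 had been shared, and 6 of 13 at Shox2), and summits within 100 bp left 29. Placing the start at the outer end of the gene changed none of these counts. At Shox2 and Alx4 that end is the start site already used, so nothing could change there. It lies 1495 bp away at Prrx1 and 303 bp away at Prrx2. The outer-end setting and the reduction of the E10.5 list by −log10 p were chosen after seeing the data. Among the 4 genes, Alx4 had the lowest shared share of its E10.5 regions in the full list. It also did at matched length (4 of 11 by signal, 3 of 8 by −log10 p) and with a −log10 p of at least 5 (1 of 16). At Prrx2 these were 17 of 22, 17 of 22 and 7 of 26. Shares of the whole lists are given only for the main setting, so these alternatives cannot show whether the windows stand apart from their lists.

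By −log10 p in place of signal, the E10.5 promoter regions ranked in the top 2.52% at Prrx1, 18.5% at Prrx2, 34.3% at Shox2 and 17.4% at Alx4, against 0.219%, 7.90%, 7.24% and 3.36% by signal and 9.97%, 41.9%, 24.4% and 39.0% by signal per bp. At E11.5 the strongest promoter regions by signal were at rank 2058 of 37413 at Prrx1 and in the top 53.9% at Prrx2, 11.1% at Shox2 and 43.8% at Alx4. In the same order of genes they ranked in the top 28.0%, 82.4%, 28.7% and 50.1% by −log10 p, and 29.0%, 70.2%, 42.1% and 66.8% by signal per bp.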
